A study of Mus musculus with 3 samples.

Results

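Upper layer 2/3 intratelencephalic-like neurons of the mouse medial prefrontal cortex were picked out of 3 single-cell RNA libraries by a gate on marker genes, and 549 of the 52083 deposited cell barcodes met it. The gate read the unique molecular identifiers (UMIs, 1 per captured RNA molecule) of each barcode as UMIs per 10000, called p10k here. A member had at least 4000 UMIs and at most 15% mitochondrial UMIs. It had at least 1 p10k of Slc17a7, the vesicular glutamate transporter of cortical excitatory neurons. It had under 1 p10k of Gad1 and Gad2, which make GABA, and at most 2 p10k of the microglial, endothelial, oligodendrocyte and astrocyte genes C1qa, Cldn5, Mog and Gja1 together. Calb1, Otof and Wfs1 together had to reach 4 p10k with 2 or more of the 3 detected. Deep layer genes had upper limits, at 8 p10k for Tshz2 and Vwc2l, 4 for Foxp2, Syt6 and Rprm, 3 for Pou3f1, Npr3 and Chst8, and 2 for Oprk1, Rxfp1 and Osr1. These genes chose the cells, so their levels are given as a description, with no test.

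Intratelencephalic neurons are excitatory cells whose axons stay within the telencephalon. Those of layers 2 and 3 link cortical areas within and between the hemispheres, while cells of layers 5 and 6 also reach the thalamus, brainstem and spinal cord. Upper layer cells are known for the transcription factors Cux1 and Cux2, for calbindin (Calb1) and for a restricted use of the factors Fezf2, Bcl11b and Tbr1 that shape subcortical projection neurons. The medial prefrontal cortex serves social and reproductive behaviour, and the study asked how its neurons differ with the estrous cycle and with sex.

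The tissue was taken from 2 female mice in estrus, the receptive phase of the cycle, from 2 female mice in diestrus, and from 2 male mice. No agent, transgene or allele is named in the labels, and they give neither age nor strain. Each group is 1 library of pooled papain-dissociated cells, with 15000 cells loaded on a 10x Genomics chip, so no group has a replicate. Values between libraries therefore carry counting intervals but no test. In a gate such as this one, a library with fewer cells of a type and one with less RNA per cell cannot be told apart.

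The libraries held 14476 barcodes in estrus, 18052 in diestrus and 19555 in the male, of which 10475, 8889 and 8411 passed the UMI and mitochondrial limits. Xist, transcribed from the inactive X chromosome, stood at 426, 625 and 0.841 counts per 1000000 nuclear UMIs (CPM) in the members of the estrus, diestrus and male libraries, and the Y-linked Uty at 0, 0 and 42.1 CPM, as the labels state. Between 68 and 97 barcode sequences were shared by each pair of libraries, and 0 members carried a barcode that was a member in another library as well. No member had a Scrublet doublet score above 0.3, the limit used here. Scrublet's automatic limit marked 681 barcodes in estrus, 555 in diestrus and 0 in the male, of which 1 was a member, in diestrus. Although the labels call the material neurons, the libraries also held glial, vascular and immune cells.

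Members were deeply sampled, and unequally so. Their median was 38164 UMIs in estrus, 29316 in diestrus and 20808 in the male, over a range of 4248 to 93920. Median genes detected per member were 7273, 6688 and 5806. The median mitochondrial share ran the other way, at 2.73% in estrus, 3.62% in diestrus and 3.92% in the male. Within each library, mitochondrial share was lower in deeper members, with Spearman's rho of -0.39 over 229 cells in estrus, -0.67 over 145 in diestrus and -0.76 over 175 in the male, where both measures share the UMI total.

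Calb1, 1 of the genes that chose the cells, was at 603, 539 and 576 CPM in the summed members of the estrus, diestrus and male libraries. Upper layer markers that the gate did not use were high as well. Cux2 stood at 171, 186 and 179 CPM in the members and at 58.9, 30.9 and 46.4 CPM in the other glutamatergic gate cells of the same libraries. Those are the 4232 cells that met the glutamatergic limits but failed an upper or deep layer limit. Lamp5, a lysosome-associated membrane protein of upper layer neurons that was likewise outside the gate, stood at 196, 189 and 280 CPM in the members against 52.0, 43.0 and 50.5 CPM. The 3 libraries of members lay above the 3 libraries of other cells for both genes, though the share of all genes with such sums was not counted.

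After each cell was thinned to 4000 UMIs, Cux2 was detected in 49.8%, 41.4% and 46.3% of the estrus, diestrus and male members. It was detected in 18.3%, 8.28% and 15.3% of other glutamatergic cells and in 7.62%, 7.70% and 9.56% of microglial gate cells (at least 5 p10k of C1qa). Microglia should lack it, but this gate set no limit on neuronal genes. After thinning, Slc17a7 was detected in 10.2%, 21.4% and 24.5% of the same microglial gate cells. Whether their Cux2 was free RNA or came from mixed barcodes was not tested, and their depth was lower. In diestrus the other glutamatergic cells were near the microglial share. Unthinned, their shares were 20.8% and 13.0%, at medians of 26675 and 5608 UMIs. Whether the Cux2 of those glutamatergic cells was free RNA was not tested. Before thinning the members' shares were 95.6%, 94.5% and 86.9%, at the median depths given above; microglial gate cells had medians of 6053.5, 5608 and 5307 UMIs. Lamp5 was detected in 48.9%, 46.9% and 62.9% of thinned members, against 1.32%, 2.99% and 6.12% of thinned microglial gate cells.

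Markers of other classes were present at unequal levels. Of 13 GABAergic markers, 4, 1 and 3 were at 0 in the estrus, diestrus and male members, and their summed level was 29.0, 68.9 and 64.5 CPM. The 7 markers of oligodendrocyte precursors summed to between 5.1 and 10.5 CPM, and the 6 of layer 6b to between 5.3 and 7.7 CPM. Glial markers were higher. The 9 astrocyte markers summed to 327, 413 and 300.3 CPM in members and to 519, 745 and 714 CPM in the other glutamatergic cells. Slc1a2, a glutamate transporter, gave 298, 361 and 266 CPM of the members' sums, and 5 of the 9 markers were under 5 CPM in each library. The 9 oligodendrocyte markers summed to 344, 289 and 386 CPM in members and to 252, 333 and 424 CPM in the other glutamatergic cells, with none at 0. Pericyte and smooth muscle markers summed to 37.8, 75.03 and 5.33 CPM in members, with Acta2, a smooth muscle actin, at 2.49, 28.2 and 0.28 CPM. Endothelial markers summed to 51.7, 25.5 and 20.7 CPM and microglial markers to 52.0, 47.5 and 60.8 CPM. The part of these cell types in the comparisons below was not tested. Layer 4/5 markers summed to 30.4 CPM in estrus, 75.3 in diestrus and 31.1 in the male, and layer 6 corticothalamic markers to 29.5, 93.9 and 34.8 CPM. Both were highest in the diestrus members, as were the layer 5/6 near-projecting markers, at 23.6, 50.2 and 33.6 CPM. Layer 5 extratelencephalic markers were highest in estrus, at 99.0, 80.7 and 65.3 CPM, and layer 6 intratelencephalic markers in the male, at 73.3, 78.9 and 117 CPM. Both orders lean on 1 gene. The gate gene Pou3f1 gave 49.6, 28.6 and 23.0 CPM of the layer 5 sums. Penk, which is also on the upper layer list used below, gave 51.0, 46.8 and 95.6 CPM of the layer 6 intratelencephalic sums.

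**Figure D1:**
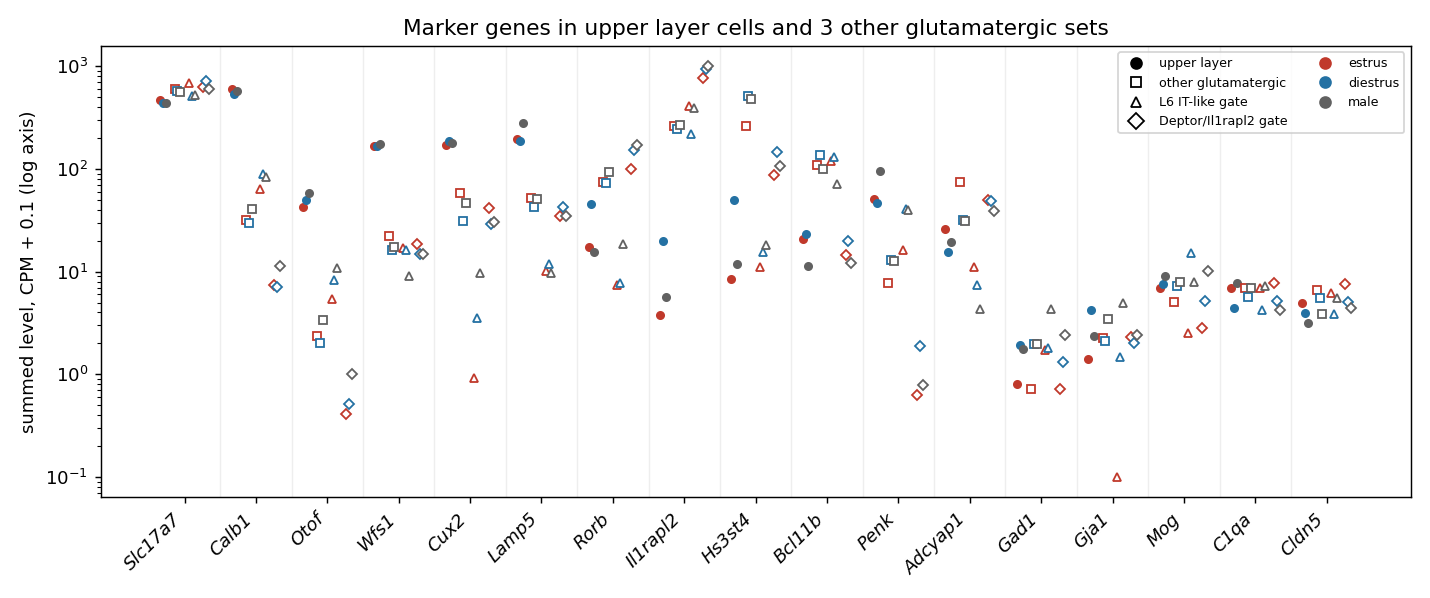
Summed level of 17 marker genes (CPM + 0.1, log axis) in upper layer members (filled circles), other glutamatergic gate cells, L6 IT-like gate cells and Deptor and Il1rapl2 gate cells (open symbols), with 1 point per library coloured by group. Cux2 and Lamp5, which did not choose the cells, were highest in the members. Gad1, Gja1, Mog, C1qa and Cldn5 were held low in all 4 sets by the glutamatergic limits.

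The gate was met in several ways. All 3 of Calb1, Otof and Wfs1 were detected in 65.5% of estrus members (95% Clopper-Pearson interval 59.0 to 71.6), 52.4% of diestrus members (44.0 to 60.8) and 40.6% of male members (33.2 to 48.2). That order is the order of their depth. Calb1 with Wfs1 alone made up 30.1%, 34.5% and 44.0%, and only 2 of the 549 members had Otof and Wfs1 without Calb1. Otof encodes otoferlin, a calcium sensor of vesicle release, and Wfs1 encodes wolframin of the endoplasmic reticulum. Members just inside the limit, at 4 to 5 p10k of the 3 genes, numbered 36, 24 and 30 with medians of 4.56, 4.53 and 4.57 p10k. Cells just outside, at 3 to 4 p10k, numbered 29, 19 and 26 with medians of 3.61, 3.70 and 3.48 p10k. All members together had medians of 7.31, 6.92 and 7.10 p10k.

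Members made up 15.8% of the 1445 glutamatergic gate cells in estrus (229 cells, interval 14.0 to 17.8). In diestrus they made up 8.16% of 1776 (145 cells, 6.93 to 9.54) and in the male 11.2% of 1560 (175 cells, 9.69 to 12.9). The 3 intervals did not overlap, but they cover counting error only, and dissociation and the mice differ with the library. When the gate was read from cells thinned to 4000 UMIs the shares were 6.75%, 3.82% and 6.25%, and the intervals of estrus and the male overlapped (5.40 to 8.32 and 4.98 to 7.72). By depth, the shares in estrus, diestrus and the male were 5.65%, 3.70% and 8.04% among cells of 4000 to 10000 UMIs, and 11.9%, 9.17% and 12.2% from 10000 to 20000. They were 22.4%, 9.96% and 15.1% from 20000 to 40000 UMIs, and 15.0%, 8.84% and 9.25% from 40000 up. Diestrus had the lowest share in each of these counts, while the male lay above estrus under 20000 UMIs and below it from there up.

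The members were then set against the other glutamatergic cells of the same 3 libraries, to ask what upper layer cells carry that the gate did not read. Counts were summed per library and set, and edgeR's quasi-likelihood test was run with the library as a block, with Benjamini-Hochberg adjustment over all genes and the gate's own genes left out. The cells were chosen on layer markers, so a gene that follows those markers had to differ: the tests describe how the set differs and are no independent evidence of its identity. Of 15914 genes tested, 2566 were higher in members (16.1%) and 2718 were lower (17.1%). At least 2-fold differences were found for 557 of the higher and 1068 of the lower genes.

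Evc2, a ciliary protein of hedgehog signalling on chromosome 5 (37338499 to 37425055, GENCODE, mm10), stood at 42.1, 37.3 and 43.2 CPM in estrus, diestrus and male members and at 4.70, 4.01 and 4.73 CPM in the other cells (log2 fold change 3.19 ± 0.11 SE, adjusted p = 4.13e-12). The members of each library were about equal, and all were above every sum of other cells. Nectin3, an immunoglobulin-like adhesion protein on chromosome 16 (46387706 to 46498525), stood at 133, 192 and 248 CPM against 17.8, 21.5 and 36.2 CPM (2.95 ± 0.07, adjusted p = 4.87e-13). It was lowest in estrus and highest in the male in both sets. Myh7, the slow and cardiac myosin heavy chain, stood at 97.3, 59.1 and 68.7 CPM against 13.0, 7.31 and 7.15 CPM (3.04 ± 0.09).

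Among the other genes of this end of the list were signalling proteins and peptides. Penk, the enkephalin precursor on chromosome 4 (4133531 to 4138819), stood at 51.0, 46.8 and 95.6 CPM against 7.70, 12.9 and 12.5 CPM (2.52 ± 0.15, adjusted p = 1.68e-09). Rasgrf2, a calcium-dependent activator of Ras, stood at 178, 256 and 253 CPM against 41.0, 42.1 and 56.9 CPM (2.30 ± 0.08). S100a6, a small calcium-binding protein, stood at 155, 141 and 209 CPM against 28.0, 34.3 and 39.1 CPM. Necab2 (calcium-binding), Pcdh8 (a protocadherin), Prkg2 (cGMP-dependent kinase), Stard8 (a GTPase-activating protein), Ddit4l (an inhibitor of mTOR signalling), Adam2 (known from sperm), Ccbe1 (a secreted matrix protein) and the lincRNA Gm12371 were also among the 15, with log2 fold changes between 2.32 and 2.82. In all 15 genes the lowest member sum lay above the highest sum of other cells, but they were chosen by size. The share of all genes tested with such sums was not counted.

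The lower genes included several of deep layer neurons. Sema3e, a repulsive axon guidance ligand, stood at 0.712, 0.909 and 1.96 CPM in members and at 45.7, 50.2 and 56.9 CPM in other cells (-5.56 ± 0.17, adjusted p = 2.50e-12). Fezf2, the transcription factor that specifies corticospinal neurons, stood at 0.475, 4.55 and 1.40 CPM against 74.9, 64.4 and 61.7 CPM (-5.25 ± 0.25). Grik3, a kainate receptor subunit, stood at 2.73, 8.41 and 2.80 CPM against 104, 134 and 129 CPM (-4.77 ± 0.16). Thsd7b, Il1rapl2 and Nxph3, a neurexophilin, had log2 fold changes of -5.04, -4.89 and -4.87. The other 4 of the 10 were haemoglobin genes, whose near-identical copies share reads. Hbb-bs stood at 60.0, 46.6 and 729 CPM against 2358, 5009 and 5491 CPM. More than 1% of UMIs were haemoglobin in 162 other cells, up to 96.4%, and in 2 male members, up to 25.8%. Without those barcodes the log2 fold change of Hbb-bt was -0.32, with an adjusted p of 0.16, and without the library block Hba-a1 and Hba-a2 had adjusted p-values of 0.067 and 0.054 by edgeR.

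**Figure D2:**
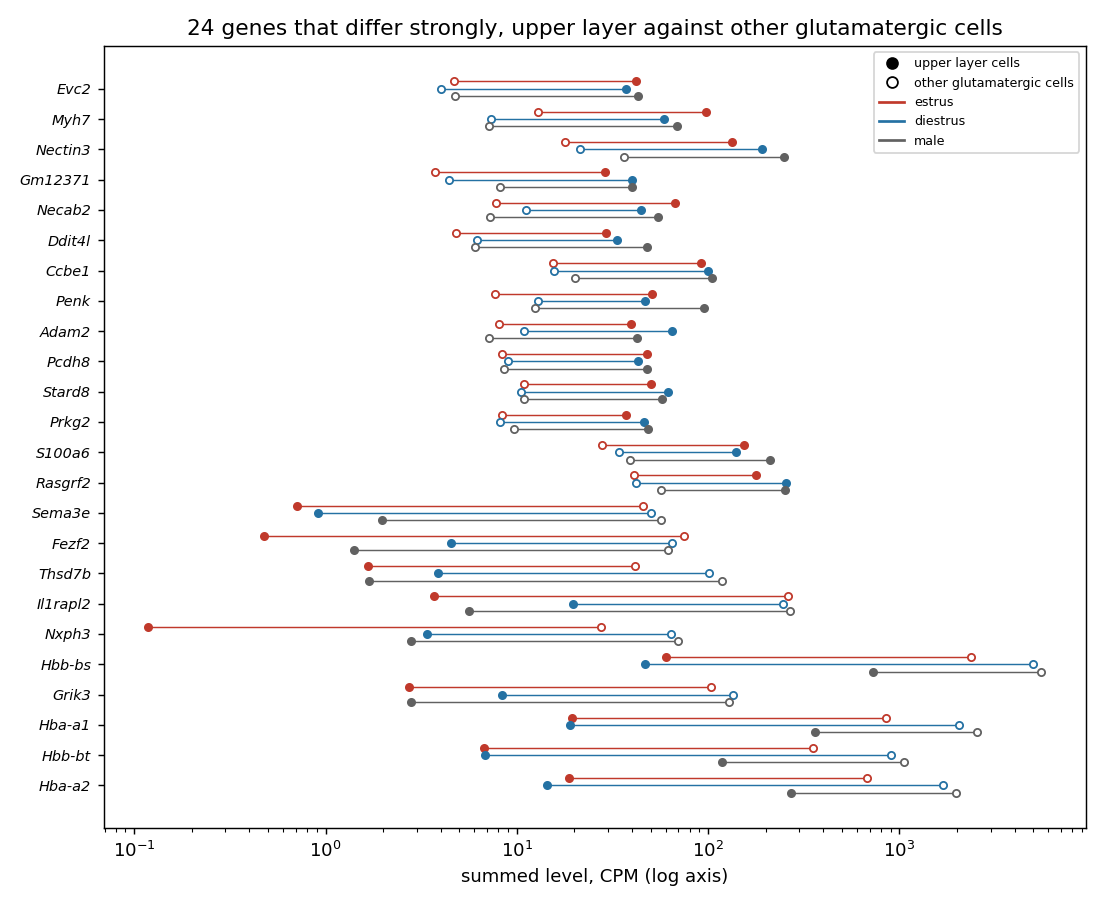
Summed level (CPM, log axis) of 14 of the 15 highest and the 10 lowest genes in upper layer members (filled) and other glutamatergic gate cells (open), with 1 line per library in the colour of its group. Evc2 to Rasgrf2 lie to the right in members of all 3 libraries, Sema3e to Grik3 lie to the left, and the male members stand apart from the other 2 libraries for the haemoglobin genes.

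Promoter windows, 250 bases before to 50 after the start, were available from RefSeq (GRCm38.p6) for 10 of the 15 higher genes, and 3 of them are shown because each holds 1 of 3 short motifs. Capitals mark TGACG (the core bound by CREB), CAGATG (an E-box read by neuronal basic helix-loop-helix factors) and TATAAA (the TATA box), searched on both strands.
Evc2 (chr5:37338228-37338527, forward strand): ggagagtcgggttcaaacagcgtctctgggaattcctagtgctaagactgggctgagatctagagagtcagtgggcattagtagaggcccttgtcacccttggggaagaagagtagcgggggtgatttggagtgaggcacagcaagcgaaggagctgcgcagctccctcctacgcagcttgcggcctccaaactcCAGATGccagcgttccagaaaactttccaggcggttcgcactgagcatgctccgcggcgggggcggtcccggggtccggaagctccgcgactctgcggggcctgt
Pcdh8 (chr14:79771263-79771562, reverse strand): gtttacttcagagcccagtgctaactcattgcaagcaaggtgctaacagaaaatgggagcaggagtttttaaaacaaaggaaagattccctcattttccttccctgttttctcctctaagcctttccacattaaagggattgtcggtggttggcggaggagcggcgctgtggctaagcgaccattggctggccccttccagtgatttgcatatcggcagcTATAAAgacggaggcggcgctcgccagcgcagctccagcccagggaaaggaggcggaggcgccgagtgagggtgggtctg
Rasgrf2 (chr13:92131779-92132078, reverse strand): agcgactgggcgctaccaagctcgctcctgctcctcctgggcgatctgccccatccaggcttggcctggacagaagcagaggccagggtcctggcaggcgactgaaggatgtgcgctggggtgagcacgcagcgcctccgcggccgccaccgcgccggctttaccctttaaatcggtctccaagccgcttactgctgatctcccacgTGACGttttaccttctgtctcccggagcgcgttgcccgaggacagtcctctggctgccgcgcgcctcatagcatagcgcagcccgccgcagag
The TATA box letters of Pcdh8 begin at position -30 from its start. TGACG was found in 2 of the 10 windows and in 20.9% of 32544 windows of all genes. CAGATG was found in 1 of the 10 and in 17.1% of all windows, and TATAAA in 2 of the 10 and in 13.6%. No motif was thus common to the leading genes, and a match of letters is a description only.

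Known layer genes outside the gate were followed as lists, beside shares of 16.1% higher and 17.1% lower over all genes tested. Of 24 upper layer genes, 18 were higher in members and 2 lower, with a median log2 fold change of 1.16 beside 0.00 over all genes tested. Bhlhe22, a transcription factor of upper layers, stood at 74.5, 77.5 and 91.7 CPM against 20.9, 16.1 and 16.3 CPM (2.17 ± 0.10, adjusted p = 1.30e-10). Inhba, the activin subunit, stood at 77.4, 54.6 and 44.9 CPM against 21.4, 20.0 and 12.9 CPM (1.71 ± 0.09). Rorb, of layer 4, was 1 of the 2 lower genes (-1.66 ± 0.21). Of 23 tested deep layer genes 22 were lower, with a median of -2.93, while the comparison cells hold those layers by the gate's limits. The exception was Cplx3, at 2.61, 0.909 and 1.96 CPM against 1.42, 9.69 and 7.37 CPM (adjusted p = 0.063).

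Peptides and their receptors gave a mixed pattern. Pdyn, the dynorphin precursor, stood at 19.9, 20.5 and 19.1 CPM in members against 2.01, 1.74 and 2.19 CPM in other cells (3.34 ± 0.17, adjusted p = 3.04e-10). Cck, cholecystokinin, stood at 3766, 2451 and 2237 CPM and was higher as well (0.57 ± 0.08). Npy and Adcyap1 were lower (-2.001 ± 0.17 and -1.22 ± 0.12). Of 15 tested neuropeptide genes, 4 were higher and 5 lower, while of all genes tested 16.1% were higher and 17.1% lower. The neuropeptide Y receptors Npy1r and Npy5r were both higher (1.27 ± 0.08 and 1.17 ± 0.15). Hcrtr2, an orexin receptor, had 0 UMIs in the members and 7.25, 9.09 and 6.995 CPM in other cells, at least 43.2-fold higher there when 3 UMIs over the 3 libraries are taken as the floor for the members.

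Of 24 receptors for monoamines and acetylcholine tested, 11 were lower and 5 higher, with a median of -0.56, while of all genes tested 17.1% were lower and 16.1% higher. Drd1, the D1 dopamine receptor, stood at 0.475, 1.36 and 0.561 CPM in members against 11.4, 16.5 and 14.2 CPM (-4.18 ± 0.25, adjusted p = 2.02e-09). Adra1b, an alpha-1 adrenoceptor, stood at 8.31, 6.14 and 5.61 CPM against 39.96, 37.6 and 34.4 CPM (-2.43 ± 0.12). The M3 muscarinic receptor Chrm3 went the other way, at 366, 585 and 644 CPM against 141, 301 and 343 CPM (1.09 ± 0.08, adjusted p = 3.66e-08). Adrb1 and Adra2c were also higher (0.58 ± 0.08 and 0.76 ± 0.11).

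Ion channel and receptor families, short lists each, held both higher and lower subunits. Over all genes tested, 16.1% were higher and 17.1% lower. Of 27 potassium and HCN channel genes, 11 were higher and 11 lower. Kcnip2, which modulates A-type potassium channels, was higher by 1.48 on the log2 scale. Of 17 inhibitory receptor genes, 5 were higher, with Gabrd (1.61), the subunit of extrasynaptic receptors, and 5 were lower, with Gabra5 (-1.89). Of 7 metabotropic glutamate receptors, 2 were higher, with Grm5 (0.45), and 3 lower, Grm8 (-2.12), Grm4 (-1.35) and Grm3 (-0.62).

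Genes induced by neuronal activity were counted in 2 classes, beside shares of 16.1% higher and 17.1% lower over all genes tested. Of 20 immediate early genes, the first to respond, 10 were lower in members and 2 higher. Nr4a2 stood at 9.73, 5.46 and 2.24 CPM against 24.5, 28.4 and 19.4 CPM (-1.88 ± 0.19, adjusted p = 1.17e-06), and it is also a marker of deep layers. Fos stood at 57.9, 61.4 and 105 CPM against 135, 141 and 77.2 CPM (-0.68 ± 0.21), so that its male members alone lay above their other cells. Egr3 was higher (0.55 ± 0.08). Of 18 late activity genes, which code for secreted and synaptic proteins, 9 were higher and 2 lower. Bdnf, a neurotrophin, stood at 252, 178 and 165 CPM against 173, 110 and 71.0 CPM (0.80 ± 0.10, adjusted p = 6.74e-06). Scg2, secretogranin II, stood at 381, 211 and 251 CPM against 176, 136 and 142 CPM (0.87 ± 0.08).

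**Figure D3:**
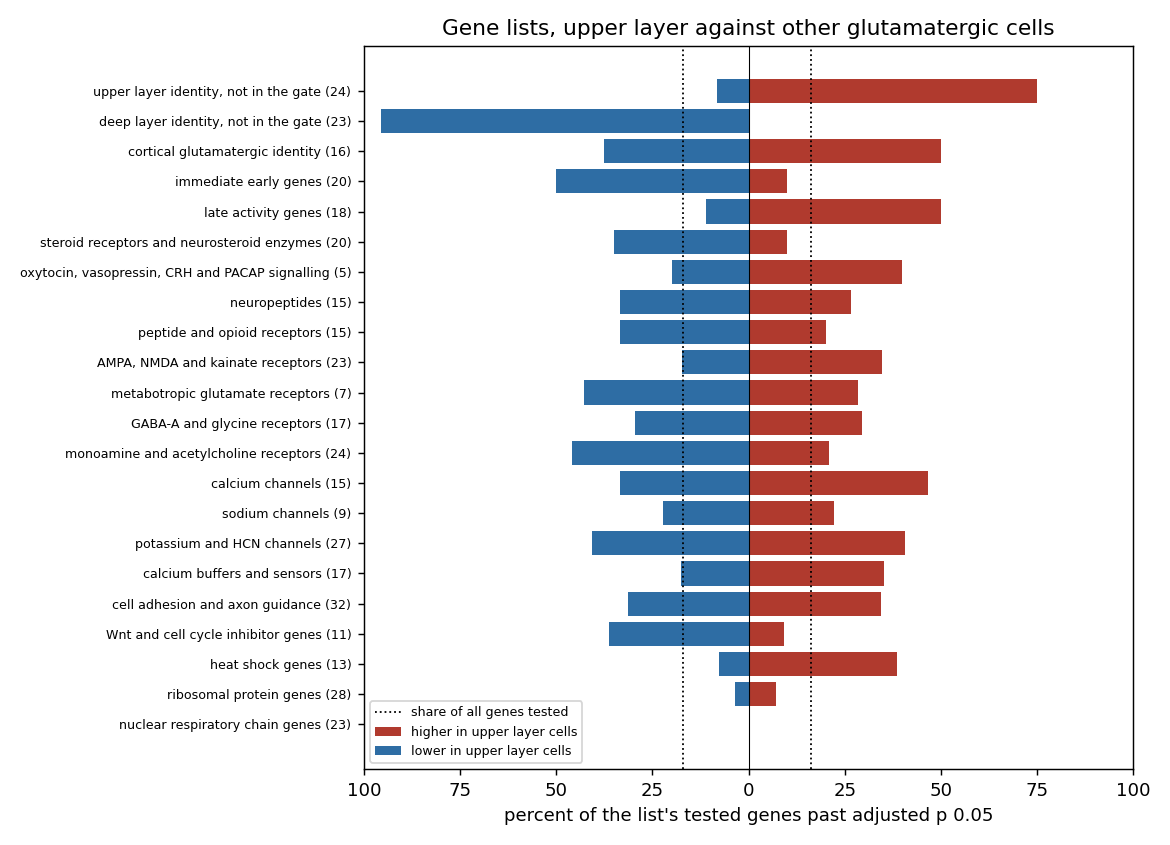
Percent of the tested genes of each list (number tested in brackets) that were higher (right) or lower (left) in upper layer members than in other glutamatergic cells at an adjusted p under 0.05, with dotted lines at the share of all genes tested, 16.1% and 17.1%. The bar of upper layer genes, 18 of 24, reaches furthest to the right, and that of deep layer genes, 22 of 23, furthest to the left.

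Among hormone receptors, Pgr, the progesterone receptor, was lower in members, at 19.6, 22.3 and 28.0 CPM in estrus, diestrus and male members against 35.2, 39.3 and 39.2 CPM in other cells (-0.73 ± 0.09, adjusted p = 1.73e-05). Esr1, an estrogen receptor, was scarce, at 7.0, 10.2 and 5.05 CPM against 5.50, 6.73 and 7.26 CPM (adjusted p = 0.39). Of 20 tested genes of steroid receptors and neurosteroid enzymes, 2 were higher and 7 lower. Over all genes tested the shares were 16.1% and 17.1%. Oxtr, the oxytocin receptor, stood at 2.02, 2.50 and 1.68 CPM in members against 0.755, 0.836 and 0.756 CPM (1.41 ± 0.36, adjusted p = 0.0066). Avpr1a, a vasopressin receptor, had 0 UMIs in the members, which allows up to 0.356, 0.682 and 0.841 CPM by 3 counts per library.

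The members were also set against 2 narrower cell sets, each a part of the other glutamatergic cells. How like the members these sets are was not measured. The first was the 231 L6 IT-like gate cells, which reached 2 p10k of Oprk1, Rxfp1 and Osr1 and met the other deep layer limits. The second was the 481 cells with Deptor and Il1rapl2, both detected and together at 4 p10k or more, and below every deep layer limit of the gate. Against L6 IT-like cells, 1073 of 12230 genes were higher in members (8.77%) and 993 lower (8.12%). Against Deptor and Il1rapl2 cells, with those genes left out, 2698 of 13426 were higher (20.1%) and 2467 lower (18.4%). The 3 comparisons share the members, so their lists are not independent.

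Against L6 IT-like cells the upper layer genes were furthest apart. Cux2 stood at 171, 186 and 179 CPM in members and at 0.811, 3.44 and 9.60 CPM in L6 IT-like cells (5.45 ± 0.28, adjusted p = 2.86e-07). Lypd1, which modulates nicotinic receptors, stood at 218, 160 and 179 CPM against 2.84, 5.85 and 2.40 CPM (5.52 ± 0.21). Glra3, a glycine receptor subunit, stood at 32.6, 54.3 and 57.5 CPM against 0, 0.689 and 0.600 CPM, the latter from 3 UMIs in all, which gave a ratio of 103 with a counting interval of 35.1 to 500. Lamp5, the secreted protein gene Tafa2, the potassium channel gene Kcnh5 and Cpne8 were also among the 8 highest, between 3.66 and 4.31 on the log2 scale. Of the 24 upper layer genes 19 were higher and 2 lower, beside 8.77% and 8.12% of all genes tested here.

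Sema3e was the lowest there too, at 100.6, 81.9 and 152 CPM in L6 IT-like cells (-6.64 ± 0.18). Galnt14, a glycosyltransferase, stood at 8.07, 7.50 and 3.36 CPM in members against 314, 265 and 199 CPM (-5.34 ± 0.14, adjusted p = 2.27e-09). Bmpr1b, a bone morphogenetic protein receptor, and the lincRNA Gm2694 had log2 fold changes of -5.50 and -5.37. The serotonin receptor gene Htr2c was higher in members here (3.91), whereas it was lower against all other glutamatergic cells (-0.80). Of 18 late activity genes 13 were higher and 1 lower, with a median of 0.62, and of 19 immediate early genes 6 were higher and 3 lower, with a median of 0.43. Of all genes tested against these cells, 8.77% were higher and 8.12% lower. The immediate early genes thus had a median above 0 here and below 0 (-0.41) against all other glutamatergic cells.

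Against Deptor and Il1rapl2 cells, Penk was the furthest apart, at 51.0, 46.8 and 95.6 CPM in members and 0.521, 1.77 and 0.688 CPM in those cells (5.85 ± 0.23, adjusted p = 4.25e-11). Against L6 IT-like cells the log2 fold change of Penk was 0.94 ± 0.22 (adjusted p = 0.012). Matn2, a matrix protein, stood at 81.0, 71.8 and 74.9 CPM against 5.21, 7.10 and 4.81 CPM (3.71 ± 0.13). S100a6, Evc2, Pcdh8, Necab2, the lincRNA Gm10754 and Dpy19l3 followed, between 3.34 and 3.68. Pcp4, a calmodulin regulator, stood at 27.4, 85.7 and 95.9 CPM against 1285, 1679 and 1484 CPM (-4.59 ± 0.19, adjusted p = 6.37e-11). Tmem91, S100b, Sema3e, Fezf2 and Grik3 were the other 5 lowest. Of 28 ribosomal protein genes 14 were higher here, between 0.14 and 0.38 on the log2 scale, beside 20.1% of all genes tested. The list median was 0.15 beside 0.02 over all genes.

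Among 12185 genes tested in all 3 comparisons, 752 were higher in members than in both narrower sets. That is 70.1% of the 1073 higher than in L6 IT-like cells and 28.8% of the 2614 higher than in Deptor and Il1rapl2 cells. Over all genes tested in each comparison, 20.1% were higher than in Deptor and Il1rapl2 cells and 8.77% higher than in L6 IT-like cells. Both comparisons use the same member sums, which favours such an overlap.

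Between libraries, few genes of the members differed 2-fold. A gene counted as measured where a pair of libraries had 100 or more UMIs and a mean of 20 CPM, and ratios are log2 of CPM + 1. Of 7309 genes, 33 were at least 2-fold higher in estrus than in diestrus (0.451%) and 35 at least 2-fold lower (0.479%). Of 7351, 52 were higher in estrus than in the male (0.707%) and 66 lower (0.898%). The balance turned with the scaling: edgeR's TMM and DESeq2's size factors each gave 74 higher and 48 lower for that pair, and thinned cells gave 68 and 47. For estrus and diestrus DESeq2's factors gave 41 higher and 28 lower. Of 7325, 6 were higher in diestrus than in the male (0.0819%) and 7 lower (0.0956%). Estrus is in both of the larger counts, and the comparisons that share a library are not independent.

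The genes highest in estrus against both other libraries were of mixed function. Gm42418, a lincRNA known to overlap ribosomal RNA sequence on chromosome 17 (39846958 to 39848788), stood at 6013, 1535 and 1813 CPM in estrus, diestrus and male members. Cmss1, a ribosome-associated protein gene, stood at 1108, 193 and 301 CPM, and the lincRNA Gm19951 at 53.7, 8.19 and 12.1 CPM. Gstp1, a glutathione transferase, stood at 49.8, 10.5 and 14.9 CPM. Hnrnpa0, an RNA-binding protein, stood at 181, 56.2 and 49.6 CPM, and Csnk2a2, a casein kinase subunit, at 140, 45.02 and 44.3 CPM. These 6 genes were chosen for standing above both other libraries in estrus, so that order is no result. Diestrus and the male were nearer to each other than to estrus for these genes, which that choice favours as well. In the other glutamatergic cells the estrus over diestrus log2 ratios were 1.82 for Gm42418, 2.39 for Cmss1 and 1.30 for Hnrnpa0. In members they were 1.97, 2.52 and 1.67.

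The genes lowest in estrus included neuronal receptors and transcription factors. Tox, an HMG-box factor, stood at 17.3, 58.2 and 62.0 CPM in the same order. Htr1f, a serotonin receptor, stood at 13.3, 51.8 and 39.3 CPM. Pcp4 stood at 27.4, 85.7 and 95.9 CPM, Epha3, an ephrin receptor, at 39.7, 109 and 105 CPM, and Brinp3 at 21.8, 58.7 and 58.0 CPM. AC149090.1, annotated on an unplaced scaffold, stood at 68.5, 331 and 228 CPM. These 6 were chosen for standing below both other libraries in estrus, so that order is no result either. Without the members that held RNA of deep layer genes, described below, the estrus over diestrus log2 ratio was -1.17 for Tox in place of -1.69, and -1.50 for Htr1f in place of -1.89. For Pcp4 the estrus over male log2 ratio was -1.77 (95% counting interval -2.05 to -1.56) in members and -0.42 in other glutamatergic cells, and for Epha3 the estrus over diestrus ratio was -1.43 (-1.66 to -1.25) against -0.51. No test of that difference was possible with 1 library per group.

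Of the estrus over diestrus genes measured in both sets, 31 of 31 that were 2-fold higher in members were also above 0 in other glutamatergic cells, and 29 of 30 that were lower were also below 0. For estrus over male these were 46 of 46 and 58 of 59, and for diestrus over male 2 of 4 and 6 of 6. Both sets of cells come from the same libraries. In members 51.5% of all 7309 genes were above 0 in estrus over diestrus. The members' share was 50.3% of 7351 in estrus over male and 47.6% of 7325 in diestrus over male. The share of all genes above or below 0 in other glutamatergic cells, which the counts above need beside them, was not counted.

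Diestrus and male members had the fewest genes past 2-fold, and several of those were layer 4 to 6 genes or haemoglobins. Hs3st4, a heparan sulfotransferase of layer 6, stood at 8.31, 50.02 and 11.8 CPM in estrus, diestrus and male members, and Rorb at 17.4, 45.5 and 15.4 CPM. Over 5 p10k of Hs3st4, Il1rapl2, Rorb, Tshz2, Foxp2 and Deptor together were found in 2 of 229, 8 of 145 and 4 of 175 members. Those members were picked partly by their Hs3st4, so its ratio without them is no independent result. The diestrus over male log2 ratio of Hs3st4 was then 0.04, in place of 1.998. With cells thinned to 4000 UMIs it was 0.46 for Hs3st4 and 0.35 for Rorb, the latter in place of 1.501. The 4 haemoglobin genes, from Hba-a1 to Hbb-bt, had diestrus over male log2 ratios of -4.19 to -3.93 with all members and of -0.48 to -0.09 without the 2 male members rich in haemoglobin. As those 2 were picked by the same genes, this too is a description.

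Penk was the one neuropeptide gene at 2-fold between diestrus and the male. It stood at 51.0, 46.8 and 95.6 CPM in the 3 libraries, with a diestrus over male log2 ratio of -1.01 (counting interval -1.29 to -0.78) in members and 0.05 in other glutamatergic cells. Thinned to 4000 UMIs, 8.73%, 11.03% and 14.9% of members had a Penk UMI (intervals 5.42 to 13.2, 6.44 to 17.3 and 9.94 to 21.0), against 0.225%, 1.10% and 1.89% of microglial gate cells. These intervals overlap and cover counting error only. With 1 library per group, a difference in the share of Penk-positive cells was not tested. Gpc5, a glypican, stood at 137, 216 and 105 CPM, and Ptgds, prostaglandin D synthase, which oligodendrocytes and meninges make, at 115, 78.7 and 200 CPM. The diestrus over male log2 ratio of Ptgds was -1.33, and it moved to -2.07 with thinned cells and to -1.95 without members that held deep layer RNA.

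**Figure D4:**
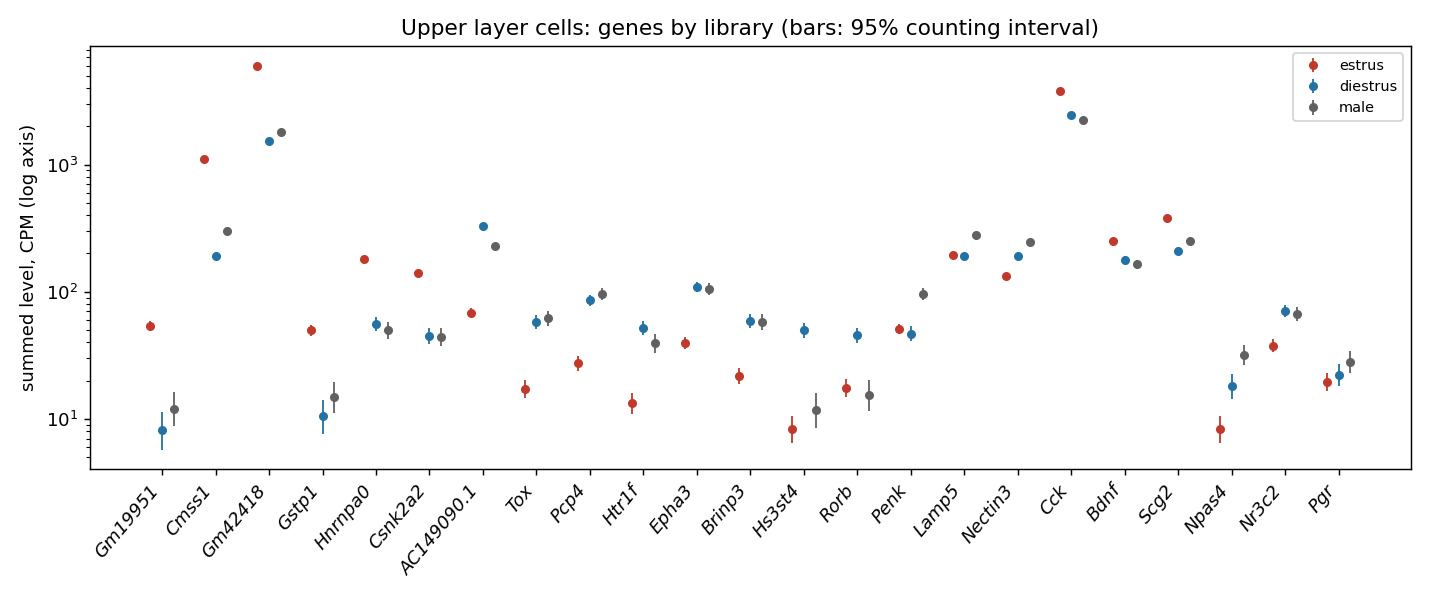
Level (CPM, log axis) of 23 genes in upper layer members of the estrus, diestrus and male libraries, with 95% counting intervals as bars. Gm19951 to Csnk2a2 were chosen as highest in estrus and AC149090.1 to Brinp3 as lowest in estrus. Hs3st4 and Rorb were highest in diestrus, and Penk was highest in the male.

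Between libraries, longer genes had lower ratios in both pairs with estrus. Measured genes were split into 5 groups by gene length. The shortest, with a median of 5.08 kb, had a median estrus over diestrus log2 ratio of 0.31, and the longest, with a median of 197 kb, of -0.28. Estrus over male gave 0.27 and -0.24, while diestrus over male gave -0.03 and 0.04. Over all measured genes Spearman's rho of ratio and length was -0.57, -0.47 and 0.12 in the 3 pairs. Every list ratio below stands beside that relation, and its part in them was not tested.

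Over all measured genes 51.5% were above 0 in estrus over diestrus and 50.3% in estrus over male, with medians of 0.01 and 0.00. Cell adhesion and axon guidance genes had a median estrus over diestrus ratio of -0.43, with 26 of 28 lower, and an estrus over male ratio of -0.38, with 25 of 29 lower. Estrus and diestrus members had 42.5 and 103 CPM of Cdh18 and 62.3 and 143 CPM of Epha7. Potassium and HCN channel genes had medians of -0.32 (23 of 25 lower) and -0.27 (20 of 25 lower). Kcnip4, an A-type channel modulator, stood at 5535, 7423 and 7165 CPM in estrus, diestrus and male members. Metabotropic glutamate receptors were lower in 6 of 6 against diestrus, with a median of -0.45, and Grm3 stood at 109, 256 and 236 CPM. In other glutamatergic cells the same medians against diestrus were -0.27, -0.06 and -0.24.

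Heat shock genes were higher in estrus than in diestrus in 10 of 10, with a median of 0.37, beside 0.27 in other glutamatergic cells. Hsp90aa1, a chaperone, stood at 1838 and 1329 CPM. Of all measured genes 51.5% were above 0 in estrus over diestrus and 50.3% in estrus over male. The 13 mitochondrially encoded genes were lower in estrus in 13 of 13 against both libraries, with medians of -0.54 and -0.63 in members and -0.24 and -0.27 in other glutamatergic cells. The 23 nuclear genes of the same respiratory chain had medians of 0.18 and 0.17. Wnt4, a secreted ligand, stood at 81.0, 34.6 and 23.0 CPM in estrus, diestrus and male members, and Cdkn1a, a cell cycle inhibitor, at 96.8, 57.5 and 37.8 CPM.

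Late activity genes had medians above 0 in estrus over either other library, at 0.34 against diestrus (14 of 17 above 0) and 0.43 against the male (12 of 17). The shares above 0 over all measured genes were 51.5% and 50.3%. Bdnf stood at 252, 178 and 165 CPM and Scg2 at 381, 211 and 251 CPM. Among neuropeptides, Cck stood at 3766, 2451 and 2237 CPM. The diestrus over male median of the late genes was 0.02. The corresponding medians in other glutamatergic cells were 0.34, 0.64 and 0.32. By depth, members under 20000 UMIs had a summed level of 2327, 2919 and 2058 CPM of the late genes in the 3 libraries, highest in diestrus, and deeper members had 2799, 2352 and 2308 CPM, highest in estrus.

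The median of 14 immediate early genes was 0.13 in estrus over diestrus, 0.11 in estrus over male and -0.14 in diestrus over male in members, against 0.06, 0.67 and 0.59 in other glutamatergic cells. Npas4 stood at 8.31, 18.2 and 32.0 CPM and Btg2 at 30.3, 54.3 and 80.2 CPM, lowest in estrus and highest in the male. Ier5 went the other way, at 168, 77.8 and 58.3 CPM, as did Jund, at 326, 191 and 178 CPM. These sums weigh deep cells most. Members under 20000 UMIs had a summed level of 1111, 1990 and 812 CPM of the list in estrus, diestrus and the male, and deeper members had 1673, 1308 and 1508 CPM. With every cell thinned to 4000 UMIs, members held a median of 4, 4 and 2 UMIs of the list per cell. Fewer of its genes were then measured, and the medians were 0.27 in estrus over diestrus (6 genes), 0.71 in estrus over male (7) and 0.53 in diestrus over male (5). For the late genes the thinned medians were 0.22 (10 genes), 0.43 (9) and 0.29 (8).

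Steroid receptor genes were close between libraries. Nr3c2, the mineralocorticoid receptor, stood at 37.7, 70.9 and 67.3 CPM in estrus, diestrus and male members, the widest gap of those named here, with an estrus over diestrus log2 ratio of -0.89 (interval -1.14 to -0.68). Pgrmc1, a progesterone-binding membrane protein, stood at 395, 300 and 269 CPM. Pgr stood at 19.6, 22.3 and 28.0 CPM, and its counting intervals overlapped between estrus and diestrus. The list's medians were -0.10, -0.01 and 0.12 in the 3 pairs.

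**Figure D5:**
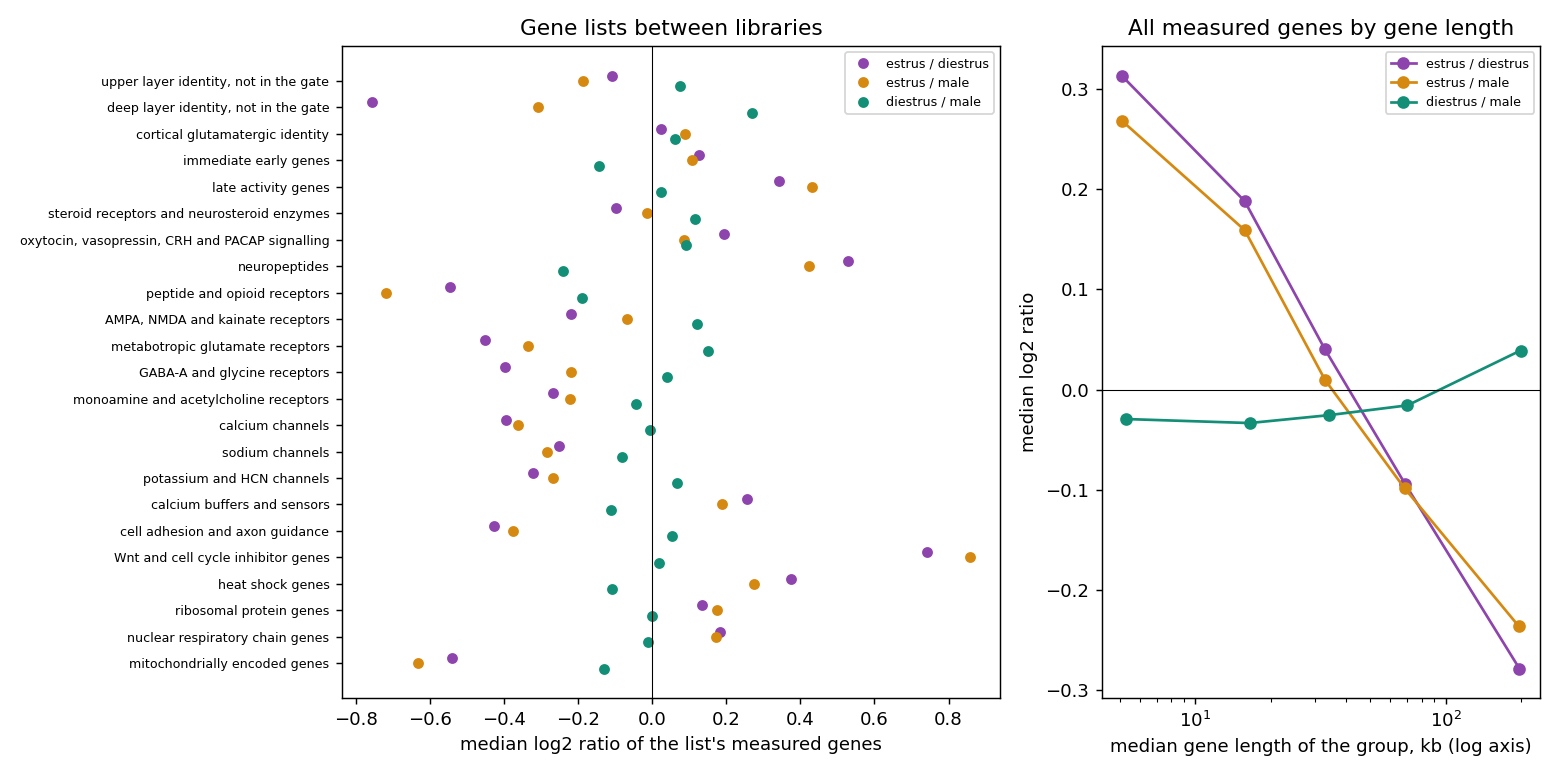
Left, median log2 ratio of the measured genes of each list in upper layer members for the 3 pairs of libraries. Right, median log2 ratio of all measured genes in 5 groups of gene length (kb, log axis). Both pairs with estrus fall with length, from 0.31 and 0.27 to -0.28 and -0.24, and diestrus over male stays near 0.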

How the data were processed

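The authors deposited raw UMI count matrices per library, whole-number counts of unique molecular identifiers per gene and barcode, with no normalization. Cell Ranger 3.0.2 is named in the submitters' processing notes and 7.0.0 per the file headers, with mm10; neither source states whether intronic reads were counted, which bears on long genes. Each group is 1 library, so no test compares libraries; intervals are exact binomial at 95% and cover counting error only. Counts were summed per library and cell set; mitochondrial counts stayed out of CPM totals. Cell sets were compared with edgeR 4.0.16 (R 4.3.3; TMM factors, filterByExpr, quasi-likelihood test, library as block since sets of 1 library share it, threshold 0.05) and with DESeq2 1.42.0 as an alternative; p-values measure the spread over 3 libraries. On simulated data the test recovered 94% to 100% of genes changed 2-fold and 36% to 46% of those changed 1.5-fold. The simulation gave all genes 1 dispersion, had no library effect and changed only genes of 20 CPM or more. It does not show the recovery of lower genes or in libraries that differ as these do. Thinning used 4000 UMIs. Doublet scores are from Scrublet (scanpy 1.11.5), with a limit of 0.3; cells above it were left out in an alternative. Genes were named by size. Against other glutamatergic cells these were the 15 highest and 10 lowest, and against each narrower set the 8 highest and 6 lowest. They came from called genes with a mean of 20 CPM and the same sign in all libraries. Between libraries they were the 8 highest and 8 lowest ratios per pair, and the 6 genes highest and 6 lowest in estrus against both others. Further genes come from the lists. Members and gene lists were chosen with earlier results of these data known. Coordinates are from GENCODE, matched for 32235 of 32285 genes. A few genes that these rules select are not reported here.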

Additional observations from a re-analysis of the deposited data

How the results depend on the processing

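Shares of members among glutamatergic gate cells were 6.75%, 3.82% and 6.25% (estrus, diestrus, male) with the gate read from thinned cells, 6.78%, 2.59% and 3.91% with an upper gene limit of 8 p10k, and 13.1% in the male with a minimum of 8000 UMIs. Without the replicate block, here the library shared by both sets, edgeR called 843 higher and 1103 lower genes against other glutamatergic cells, 531 and 498 against L6 IT-like cells and 973 and 1128 against Deptor and Il1rapl2 cells. With thinned cells these were 1261 and 1239, 345 and 353, and 828 and 912. DESeq2 called 1773 lower genes against other cells, 597 and 592 against L6 IT-like cells and 1410 and 1455 against Deptor and Il1rapl2 cells. Leaving out each library in turn, which leaves 2 of 3, gave 2114 to 2234 higher and 2262 to 2597 lower genes against other cells, 757 to 806 and 624 to 805 against L6 IT-like cells (the lowest without the male), and 1728 to 2476 and 1811 to 2351 against Deptor and Il1rapl2 cells (the lowest higher count without estrus). No paired analysis was possible because the libraries compared are 1 per group, so 2-fold counts have no test. Without a filter on low counts, 167 and 350 genes were higher and lower in estrus than in diestrus, 284 and 531 in estrus than in the male, and 343 and 215 in diestrus than in the male. With 10 CPM added the counts were 21 and 20, 21 and 26, and 2 higher in diestrus than in the male. With the upper gene limit of 8 p10k they were 65 and 63 for estrus and diestrus and 94 higher for estrus over male. Thinning left 1 gene higher in diestrus than in the male, and 7 list medians below 0 there in place of 11. Without the haemoglobin-rich barcodes 3 genes were lower in diestrus than in the male. With the upper gene limit of 8 p10k the estrus over male log2 ratios of Hba-a1, Hbb-bt, Hba-a2 and Hbb-bs turned to 0.24, 0.28, 0.31 and 0.017, and the diestrus over male ratio of Hba-a1 to 0.027. Of the alternative values for genes named against cell sets, 580 kept their call and 3 lost it, among haemoglobin genes. The removal of barcodes rich in haemoglobin or in deep layer RNA was chosen after seeing the data. The cause of the other changes was not tested.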

Other observations

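Members also differed among themselves. After thinning to 4000 UMIs, the variance over mean across cells (Fano factor, 1 for pure counting) exceeded 2 in all 3 libraries for 62 of 7733 genes. Malat1, a nuclear RNA, led with 60.3, 51.7 and 39.4 in estrus, diestrus and male members. Nrgn, a postsynaptic calmodulin-binding protein, had 8.52, 6.55 and 8.98, and Kcnip4 had 6.25, 6.17 and 6.49. Ptgds had 56.1 in the male and 5.90 and 4.51 in estrus and diestrus.

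Across the 229, 145 and 175 cells of the libraries, Kcnip4 and Lsamp, a neuronal adhesion gene, went together, with Spearman's rho of 0.71, 0.57 and 0.59. Nrgn and Cck went together as well (0.58, 0.57 and 0.43), while Kcnip4 and Cck went opposite ways (-0.54, -0.49 and -0.52). Malat1 went with Kcnip4 (0.40, 0.45 and 0.41) and opposite to Nrgn (-0.25, -0.40 and -0.48) and Cck (-0.43, -0.38 and -0.26). Cells of 1 library share their preparation and every cell was brought to the same UMI total, which ties abundant genes to each other. These values are a description.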
